A study of Homo sapiens with 6 samples.

Results

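The SLC25 family is the set of mitochondrial carriers, small membrane proteins that move metabolites, nucleotides, cofactors and ions across the inner membrane of mitochondria. Its members here are the 48 genes of the count table whose symbol is SLC25A followed by a number only, out of 54261 gene symbols in all. Antisense and pseudogene names were left out, and the symbol alone decided which genes were members. RNA was sequenced from T24, an established human cell line from a bladder carcinoma, in 6 libraries. In 3 libraries the cells had been infected with a lentivirus carrying the MTHFD2 hairpin that the labels number 2, and in 3 with the negative control lentivirus. Both viruses carried ZsGreen and a puromycin resistance marker, and stable cells were selected with puromycin. The comparison therefore rests on 1 hairpin in 1 cell line, and the labels do not say whether replicates were separate cultures, so a p-value reflects only how far these libraries scatter, and that scatter may be technical.

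MTHFD2 is a folate enzyme of the mitochondrial matrix, and its cofactors, substrates and products depend on carriers. Citrate, malate, aspartate and glutamate cross by carriers that link the tricarboxylic acid cycle to the cytosol. ADP/ATP carriers and the phosphate carrier feed ATP synthase and return ATP to the cytosol, and other members bring in folate, FAD, NAD, coenzyme A, S-adenosylmethionine, glutathione, pyrimidine nucleotides or iron.

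The target fell in every library with the hairpin. MTHFD2 was at 26.7, 33.6 and 36.7 CPM (the count per library size, scaled by TMM) in knockdown replicates 1 to 3, against 185, 188 and 181 CPM in control replicates 1 to 3 (log2 fold change of -2.51 ± 0.13, SE, edgeR adjusted p = 1.8e-06). Library totals ran from 17801990 to 19978392 counts, so a count of 3, the limit that a count of 0 allows, equals 0.149 to 0.171 CPM, a limit that covers counting error only. The epithelial keratins KRT8 and KRT18 were abundant in all libraries but lower after knockdown. KRT7 was at 189, 134 and 170 CPM in the knockdown libraries, against 202, 183 and 244 CPM in the controls. Its groups overlapped, and it did not pass (log2 fold change of -0.35 ± 0.14, SE, edgeR adjusted p = 0.104). KRT8 was at 402, 304 and 323 CPM in the knockdown libraries, against 785, 786 and 904 CPM in the controls (log2 fold change of -1.27 ± 0.13, SE, edgeR adjusted p = 0.000191). KRT18 was at 710, 544 and 672 CPM after knockdown and 1109, 1118 and 1348 CPM in controls (-0.89 ± 0.13, SE, edgeR adjusted p = 0.00157). The summed level of 16 urothelial markers was 1336, 1016 and 1203 CPM in the knockdown libraries, against 2127, 2119 and 2526 CPM in the controls. Low urothelial markers that rose were UPK1A, ELF3 and FOXA1, with log2 fold changes of 1.72 ± 0.40, 0.96 ± 0.20 and 0.53 ± 0.17 (SE, edgeR adjusted p = 0.0141, 0.00937 and 0.047). UPK1A and ELF3 missed the threshold with control replicate 1 left out (edgeR adjusted p = 0.0625 and 0.0519), and FOXA1 with any control or knockdown replicate 2 or 3 left out (edgeR adjusted p from 0.0755 to 0.183). Other urothelial markers, KRT5, KRT20, UPK3A and TP63, had at most 1 count in any library, and GATA3 had 2 to 5 counts. KRT19 had 0 to 5 counts, UPK2 0 to 6 and EPCAM 4 to 10. Markers of fibroblasts differed between the groups and between knockdown libraries. The summed level of all 10 was 46.0, 12.1 and 40.2 CPM in knockdown replicates 1 to 3, against 7.30 to 9.25 CPM in the controls. COL1A1, COL1A2, COL3A1, DCN and SPARC rose, with log2 fold changes of 1.83, 2.22, 2.15, 2.1 and 2.28. Their edgeR adjusted p was 0.0077, 0.021, 0.00986, 0.0129 and 0.00893, and each was highest in knockdown replicates 1 and 3. LUM did not pass (edgeR adjusted p = 0.0831), and the rest were low, with FAP at 1 to 4 counts. Of the markers of other cells, those of hepatocytes, brown adipocytes and erythroid cells had at most 3 counts in every library. Those of leukocytes, endothelium and skeletal muscle were low but not all at that floor. Their summed levels were 1.59 to 3.23, 0.964 to 2.91 and 0.104 to 0.398 CPM over the libraries. Knockdown replicate 2 thus had the lowest summed fibroblast markers of its group, at 12.1 CPM, still above every control. The 8 changed carriers are also given with that library alone, as a description. Which cells the fibroblast and urothelial marker transcripts came from, and their part in the results, was not tested.

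Carrier genes changed in both directions, most by small amounts. Of the 48 members, 46 had at least 1 count, and 40 passed the filter on low counts and were tested. At an adjusted p under 0.05 by edgeR's quasi-likelihood test, adjusted over all 13896 tested genes, 5 carriers rose and 3 fell. Those that rose were SLC25A27, SLC25A21, SLC25A29, SLC25A42 and SLC25A36, and those that fell were SLC25A33, SLC25A22 and SLC25A1. These 8 of 40 compare with 17.3% of all tested genes past the threshold, 9.71% higher and 7.58% lower, so the family changed about as often as the transcriptome as a whole. The median log2 fold change, knockdown over control, was -0.04 over the 40 carriers and 0.01 over all tested genes. Of the 40, 39 changed by less than 2-fold and 37 by less than 1.5-fold. Counts were also simulated with 50 genes changed at each of 1.5-, 2-, 3- and 4-fold. The test recovered 58% of those changed 1.5-fold and 76% of those changed 2-fold. Fewer genes changed there than were called here, so these rates need not hold for these data, where changes of that size could also be missed. Knockdown and control libraries did not overlap for 16 of the 40 carriers, against 39.1% of all tested genes.

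The count of 8 depended on single libraries. It was 1 without control replicate 1, 1 without control replicate 3, 2 without knockdown replicate 2 and 3 without control replicate 2, and it was 7 without knockdown replicate 1 or 3. Over all tested genes the count moved likewise, from 2402 to 1003, 986, 1469 and 1679 in the same order. It was 2607 and 2645 without knockdown replicate 1 and 3. SLC25A27 alone passed in all 6 of these fits. Knockdown replicate 2 was also set alone against the 3 controls. The spread in that fit comes from the controls only, so log2 fold changes alone are given. Of the 8 carriers, SLC25A21 and SLC25A42 had log2 fold changes of 0.68 and 0.42. With that library alone the 6 others had log2 fold changes of 1.54 for SLC25A27, 0.81 for SLC25A29, 0.55 for SLC25A36, -0.60 for SLC25A1, -0.65 for SLC25A22 and -0.92 for SLC25A33. Among carriers not called with all libraries, log2 fold changes there included 1.47 for SLC25A34 and -1.13 for SLC25A26, both of which varied widely between replicates. Others were -0.62 for SLC25A38, 0.50 for SLC25A37 and -0.45 for SLC25A11. They were -0.45 for SLC25A17, -0.42 for SLC25A44 and -0.47 for SLC25A28.

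**Figure D1:**
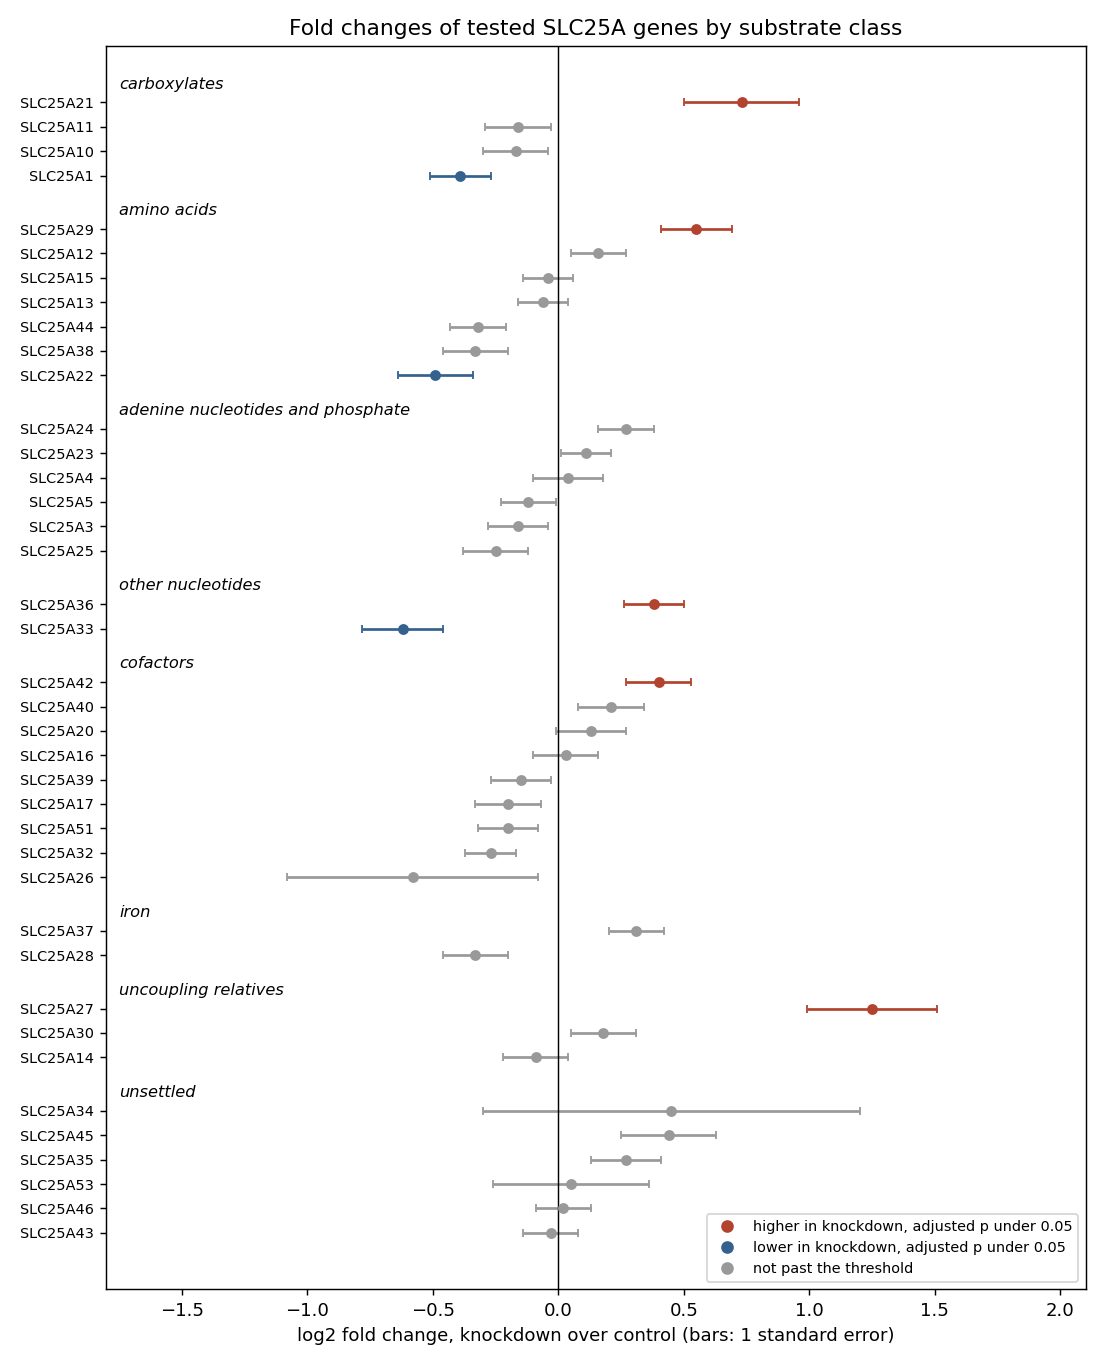
Log2 fold changes (knockdown over control, x axis) of 39 of the 40 tested SLC25A genes, grouped by the substrate each is known for. Points are edgeR estimates and bars 1 standard error. Of these, 5 genes lie to the right and 3 to the left with an adjusted p under 0.05, and SLC25A27 is farthest to the right at 1.25.

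Carriers of pyrimidine nucleotides changed in opposite directions. SLC25A33 and SLC25A36 are paralogs that exchange pyrimidine nucleotides for mitochondrial DNA and RNA synthesis. Their promoters are shown because, among paralog groups of genes with an SLC25A symbol, only here did one fall and the other rise past the threshold. UCP2, a relative without that symbol, fell while SLC25A27 rose, as given below. Each window covers 250 bases before to 50 bases after the gene's start and is from RefSeq on GRCh38.p14, plus strand, with capitals marking the letters CACGTG (an E-box) and TGACGTCA (a cyclic AMP response element).
SLC25A33, chr1:9539215-9539514: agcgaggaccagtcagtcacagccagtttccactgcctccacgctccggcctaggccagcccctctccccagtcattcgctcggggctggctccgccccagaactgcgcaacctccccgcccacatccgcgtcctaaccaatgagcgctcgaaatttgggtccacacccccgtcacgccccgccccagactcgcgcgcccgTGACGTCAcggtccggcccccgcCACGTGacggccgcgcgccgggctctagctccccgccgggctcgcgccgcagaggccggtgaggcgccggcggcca
SLC25A36, chr3:140941586-140941885: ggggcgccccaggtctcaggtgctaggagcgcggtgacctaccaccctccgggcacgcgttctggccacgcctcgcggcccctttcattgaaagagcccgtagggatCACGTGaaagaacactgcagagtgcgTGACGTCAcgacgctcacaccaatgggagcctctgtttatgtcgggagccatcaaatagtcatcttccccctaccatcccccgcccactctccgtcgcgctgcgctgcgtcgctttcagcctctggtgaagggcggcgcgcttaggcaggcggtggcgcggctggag

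Both windows held each of the 2 motifs once, without overlap. CACGTG begins 26 bases before the start in SLC25A33 and 143 bases before it in SLC25A36, and TGACGTCA begins 49 and 117 bases before it. Searched on both strands, CACGTG was in the windows of 7 of 40 carriers that had one, against 7.43% of 27305 promoters. TGACGTCA, chosen after the windows had been read, was in 3 of 40, the third being SLC25A25, against 1.98% of promoters. The amino acid response letters TGATGNAA were found in 1 window (3.67% of all promoters), that of SLC25A11, and the NRF1 motif in 5 (6.28%). Neither was in the window of any of the 8 carriers that changed. A match describes letters only and shows no binding.

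SLC25A33 (GRCh38 chromosome 1, 9539482 to 9585179, plus strand) was at 14.6, 11.4 and 16.1 CPM in the knockdown libraries, against 23.0, 18.1 and 23.8 CPM in the control libraries. Every knockdown library lay below every control library, and replicate 2 was lowest in both groups. edgeR put the log2 fold change at -0.62 ± 0.16 (SE, adjusted p = 0.0201). It no longer passed with control replicate 1 or 3 left out (edgeR adjusted p = 0.0767 and 0.0822), and with knockdown replicate 2 alone the log2 fold change was -0.92.

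SLC25A36 (chromosome 3, 140941830 to 140980961, plus strand) was at 61.7, 76.6 and 64.6 CPM in the knockdown libraries, against 51.7, 56.2 and 48.0 CPM in the control libraries. The groups did not overlap, and replicate 2 was highest in both. By edgeR the difference on the log2 scale was 0.38 ± 0.12 (SE, adjusted p = 0.0426). Leaving out control replicate 1, 2 or 3 or knockdown replicate 2 ended the call (edgeR adjusted p = 0.142, 0.0661, 0.162 and 0.139). Removing trends on GC content and length also ended it, with a log2 fold change of 0.16 and an edgeR adjusted p = 0.129.

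In the summed level of both genes per kilobase of exonic length, SLC25A36 held 61.3, 71.5 and 60.0% in the knockdown libraries, against 45.7, 53.7 and 43.0% in the controls. The mean share was 64.3% ± 6.28 after knockdown and 47.5% ± 5.58 in controls (SD, n = 3 each). Per kilobase, SLC25A36 was thus the larger of the 2 in every knockdown library and in control replicate 2. In CPM, without division by length, it was the larger in every library of both groups. Shares were given no test, since the paralogs were chosen with results known. The mitoferrins, which bring iron into mitochondria, showed a shift of the same form: SLC25A37 held 50.7, 59.7 and 52.2% of their summed level in the knockdown libraries, against 45.0, 45.5 and 39.3% in the controls. Shares of SLC25A12 between the aspartate-glutamate carriers and of SLC25A40 between the glutathione carriers overlapped between groups.

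**Figure D2:**
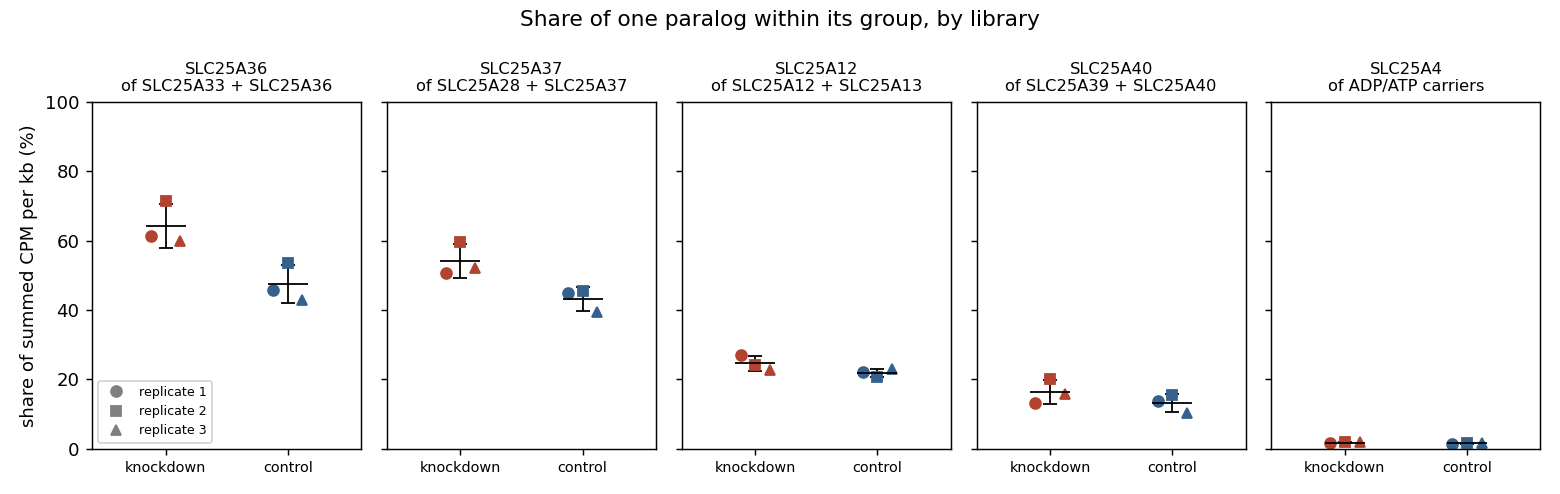
Share (y axis, %) of the named gene in the summed CPM per kilobase of its paralog group, in knockdown (left) and control (right) libraries. Symbols are replicates 1 to 3, and black marks are the mean ± SD. The SLC25A36 and SLC25A37 shares do not overlap between groups, and SLC25A4 stays below 2% of the ADP/ATP carriers in all 6 libraries.

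Of the relatives of uncoupling proteins, SLC25A27 had the largest change of the family. SLC25A27, also called UCP4 and known mainly from neurons (chromosome 6, 46652915 to 46678193, plus strand), held 58, 88 and 65 counts in the knockdown libraries, against 24, 27 and 33 counts in the controls. In CPM these were 2.88, 4.44 and 3.48 after knockdown, against 1.37, 1.40 and 1.75 in controls. The lowest knockdown library was thus above the highest control, at a low level in all. On the log2 scale edgeR gave 1.25 ± 0.26 (SE, adjusted p = 0.00809), and it lay between 1.07 and 1.39 when any library was left out. With knockdown replicate 2 alone it was 1.54.

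The other relatives of this group did not pass. SLC25A14 was at 15.8 ± 1.54 CPM in knockdown and 16.8 ± 0.909 CPM in control libraries (SD, n = 3 each), with a log2 fold change of -0.09 ± 0.13 (SE). SLC25A30 was at 25.9 ± 1.66 CPM after knockdown and 22.8 ± 2.95 CPM in controls (SD, n = 3 each). UCP2, an uncoupling protein of the same family that carries no SLC25A symbol, fell: it was at 28.5, 22.9 and 29.9 CPM in the knockdown libraries, against 47.4, 42.8 and 56.9 CPM in the controls. edgeR put the log2 fold change at -0.86 ± 0.14 (SE, adjusted p = 0.00277), and the call held without any library in turn. UCP1, the uncoupling protein of brown fat, had 0 to 2 counts, and UCP3 passed no test at 0.936 ± 0.182 CPM after knockdown and 0.946 ± 0.267 CPM in controls (SD, n = 3 each).

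**Figure D3:**
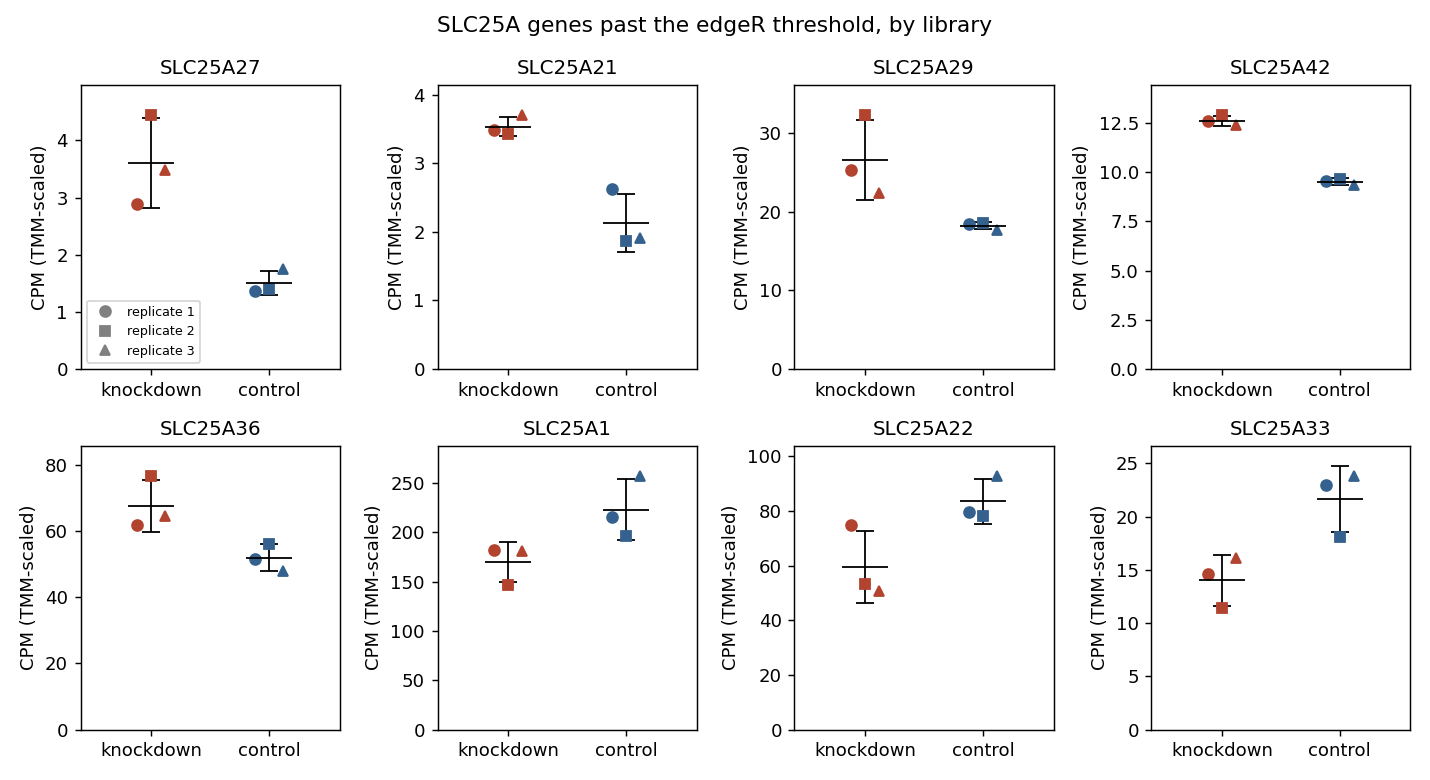
CPM (y axis, linear, from 0) of the 8 carriers past the threshold in knockdown (left) and control (right) libraries, ordered by fold change. Symbols are replicates 1 to 3, and black marks are the mean ± SD. In none of the 8 panels do the groups overlap, and replicate 2 is the highest knockdown library for SLC25A27, SLC25A29, SLC25A42 and SLC25A36 and the lowest for SLC25A21, SLC25A33 and SLC25A1.

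Carriers of di- and tricarboxylates gave 1 rise and 1 fall among 4. SLC25A1, the citrate carrier that exports citrate for fatty acid and sterol synthesis (chromosome 22, 19175575 to 19178830, minus strand), was at 182, 147 and 181 CPM in the knockdown libraries, against 216, 196 and 257 CPM in the controls. All knockdown libraries lay below all controls. By edgeR the difference on the log2 scale was -0.39 ± 0.12 (SE, adjusted p = 0.0491), at the edge of the threshold. With control replicate 1 or 3, or knockdown replicate 1 or 2, left out it no longer passed (edgeR adjusted p = 0.109, 0.206, 0.0646 and 0.136). ACLY, which splits the exported citrate in the cytosol, fell by 0.78 ± 0.13 on the log2 scale (SE, edgeR adjusted p = 0.00366).

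SLC25A21, which carries oxodicarboxylates such as oxoadipate from lysine and tryptophan breakdown (chromosome 14, 36678431 to 37172866, minus strand), held 70, 68 and 69 counts in the knockdown libraries, against 46, 36 and 36 counts in the controls. The knockdown libraries were close to each other and above all controls. On the log2 scale edgeR gave 0.73 ± 0.23 (SE, adjusted p = 0.045), between 0.63 and 0.89 with any library left out. The call was lost in all 6 of those fits (edgeR adjusted p from 0.0627 to 0.159), by DESeq2 (adjusted p = 0.0874) and with low counts kept in (edgeR adjusted p = 0.0537). Its exons share 13% of their length with PAX9 and 15.8% with SLC25A21-AS1 on the other strand, and the strand setting of the counting is not known here.

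SLC25A10 and SLC25A11, the dicarboxylate carrier and the carrier that exchanges oxoglutarate for malate, did not pass. SLC25A10 was at 35.9 ± 5.61 CPM after knockdown and 40.5 ± 3.34 CPM in controls, and SLC25A11 at 65.6 ± 10.3 CPM after knockdown and 73.1 ± 7.31 CPM in controls (SD, n = 3 each). Their log2 fold changes were -0.17 ± 0.13 and -0.16 ± 0.13 (SE). A gene on the same strand shares 46.6% of the exon length of SLC25A10, so its reads may be split.

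Amino acid carriers numbered 7 tested, of which SLC25A29 rose and SLC25A22 fell. SLC25A29, a carrier of arginine, lysine and other basic amino acids (chromosome 14, 100291111 to 100306547, minus strand), was at 25.3, 32.3 and 22.4 CPM in the knockdown libraries, against 18.4, 18.6 and 17.7 CPM in the controls. The controls lay within 1 CPM of each other, and the knockdown libraries spread wider above them. edgeR put the log2 fold change at 0.55 ± 0.14 (SE, adjusted p = 0.0229) and 0.81 with knockdown replicate 2 alone. It did not pass with control replicate 1, 2 or 3 left out (edgeR adjusted p = 0.0775, 0.0517 and 0.0808), nor without knockdown replicate 2 (edgeR adjusted p = 0.0774), where the log2 fold change was 0.38.

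SLC25A22, the main mitochondrial glutamate carrier (chromosome 11, 790475 to 798333, minus strand), was at 74.7, 53.3 and 50.7 CPM in the knockdown libraries, against 79.6, 78.0 and 92.7 CPM in the controls. Knockdown replicate 1 lay close under the controls and replicates 2 and 3 far under them. By edgeR the difference on the log2 scale was -0.49 ± 0.15 (SE, adjusted p = 0.0406). It remained past the threshold in 1 of those 6 fits, that without knockdown replicate 1 (-0.68). In the other 5 its edgeR adjusted p lay between 0.0505 and 0.148. PANO1, on the other strand, shares 10.8% of its exon length. Its paralog SLC25A18 had at most 1 count.

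SLC25A38, the glycine carrier needed for heme synthesis, and SLC25A44, a carrier of branched-chain amino acids, had non-overlapping groups without passing. SLC25A38 was at 34.9, 26.8 and 35.9 CPM after knockdown and at 40.1, 41.9 and 40.8 CPM in controls, with a log2 fold change of -0.33 ± 0.13 (SE, edgeR adjusted p = 0.09). SLC25A44 was at 65.2, 56.0 and 58.6 CPM after knockdown and 74.4, 69.5 and 80.2 CPM in controls, a log2 fold change of -0.32 ± 0.11 (SE, edgeR adjusted p = 0.0609). It passed by DESeq2 (adjusted p = 0.0402).

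The aspartate-glutamate carriers of the malate-aspartate shuttle and the ornithine carrier SLC25A15 were close in the 2 groups. SLC25A12 was at 56.6 ± 5.03 CPM after knockdown and 50.7 ± 3.73 CPM in controls, and SLC25A13 at 124 ± 3.63 CPM after knockdown and 130 ± 8.07 CPM in controls (SD, n = 3 each). SLC25A15 was at 34.1 ± 0.741 CPM after knockdown and 35.2 ± 1.19 CPM in controls (SD, n = 3 each). Their log2 fold changes were 0.16 ± 0.11, -0.06 ± 0.10 and -0.04 ± 0.10 (SE).

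None of the 6 tested carriers of adenine nucleotides and phosphate passed, although they include the most abundant members. SLC25A5, the ADP/ATP carrier of growing cells, was at 713, 613 and 748 CPM in the knockdown libraries, against 722, 710 and 815 CPM in the controls. SLC25A3, the phosphate carrier, was at 666, 584 and 771 CPM after knockdown and 707, 723 and 821 CPM in controls. Both groups overlapped for each gene, and the log2 fold changes were -0.12 ± 0.11 and -0.16 ± 0.12 (SE). SLC25A4, the ADP/ATP carrier of heart and muscle, was at 40.9 ± 6.57 CPM after knockdown and 39.7 ± 4.45 CPM in controls (SD, n = 3 each).

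SLC25A23, SLC25A24 and SLC25A25 are calcium-regulated carriers of ATP-Mg and phosphate. SLC25A24 was at 149, 171 and 174 CPM in the knockdown libraries, against 145, 145 and 120 CPM in the controls, with no overlap and a log2 fold change of 0.27 ± 0.11 (SE, edgeR adjusted p = 0.112). SLC25A23 had 0.11 ± 0.10 and SLC25A25 -0.25 ± 0.13 on the log2 scale (SE). SLC25A25 took 7.93% ± 1.33 of their summed level per kilobase after knockdown and 10.6% ± 1.21 in controls (SD, n = 3 each). The fourth paralog, SLC25A41, was under the filter with 7, 10 and 10 counts after knockdown and 2, 6 and 5 counts in controls, and did not pass without the filter (edgeR adjusted p = 0.417).

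Among 10 tested carriers of cofactors only SLC25A42 passed. SLC25A42, which brings coenzyme A into the matrix (chromosome 19, 19063999 to 19112888, plus strand), was at 12.6, 12.9 and 12.4 CPM in the knockdown libraries, against 9.58, 9.67 and 9.35 CPM in the controls. Both groups were tight, and their ranges were apart. On the log2 scale edgeR gave 0.40 ± 0.13 (SE, adjusted p = 0.0483) and lay between 0.39 and 0.41 with any library left out. Its call was lost in all 6 of those fits (edgeR adjusted p from 0.0537 to 0.16), by DESeq2 (adjusted p = 0.0911), under RLE scaling (edgeR adjusted p = 0.0505) and with low counts kept in (edgeR adjusted p = 0.103).

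SLC25A32, the carrier of folate and FAD that serves the pathway of MTHFD2, was at 60.2, 58.3 and 59.9 CPM in the knockdown libraries, against 75.5, 70.4 and 69.1 CPM in the controls. The knockdown libraries lay within 2 CPM of each other and below all controls. edgeR put the log2 fold change at -0.27 ± 0.10 (SE, adjusted p = 0.0762), short of the threshold, and lay between -0.24 and -0.30 without any library in turn. With trends on GC content and length removed it was -0.37 and passed (edgeR adjusted p = 0.00554). A same-strand gene model shares 69.7% of its exon length and DCAF13, on the other strand, 11.1%, so part of its reads could have been assigned elsewhere.

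Other carriers of cofactors did not pass. SLC25A51, the NAD carrier, was at 18.6, 17.9 and 16.4 CPM after knockdown and 19.7, 19.5 and 21.5 CPM in controls, without overlap (-0.20 ± 0.12, SE, edgeR adjusted p = 0.26). The glutathione carriers SLC25A39 and SLC25A40 were at 177 ± 19.8 and 49.5 ± 7.23 CPM after knockdown and 197 ± 23.8 and 42.8 ± 5.22 CPM in controls (SD, n = 3 each).

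SLC25A17, a peroxisomal carrier, SLC25A20, which carries acylcarnitines for fatty acid oxidation, and SLC25A16 had log2 fold changes of -0.20 ± 0.13, 0.13 ± 0.14 and 0.03 ± 0.13 (SE). SLC25A26, the S-adenosylmethionine carrier, varied widely between replicates: it held 75, 53 and 99 counts in knockdown replicates 1 to 3, against 26, 195 and 108 counts in control replicates 1 to 3. Its log2 fold change of -0.58 ± 0.50 (SE) was thus within the spread, and it was -1.03 without control replicate 1 and 0.09 without control replicate 2. LRIG1, on the other strand, shares 15.5% of its exon length.

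Both mitoferrins were apart between the groups without passing. SLC25A37 was at 136, 165 and 132 CPM in the knockdown libraries, against 114, 121 and 113 CPM in the controls, a log2 fold change of 0.31 ± 0.11 (SE, edgeR adjusted p = 0.0689). SLC25A28 was at 28.6, 24 and 26.1 CPM after knockdown and 30.2, 31.4 and 37.6 CPM in controls, a log2 fold change of -0.33 ± 0.13 (SE, edgeR adjusted p = 0.088).

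Carriers of unsettled substrate gave no call among 6 tested. SLC25A45 was at 4.72, 4.64 and 4.71 CPM after knockdown and 3.08, 3.48 and 3.82 CPM in controls (0.44 ± 0.19 on the log2 scale, SE, edgeR adjusted p = 0.124). SLC25A35 was at 11.7 ± 1.06 CPM after knockdown and 9.69 ± 0.811 CPM in controls (SD, n = 3 each), and RANGRF shares 33.2% of its exon length on the other strand. SLC25A46, an outer membrane member that acts in mitochondrial fusion and fission, was at 76.7 ± 4.40 CPM after knockdown and 75.4 ± 8.46 CPM in controls (SD, n = 3 each). SLC25A43 and SLC25A53 had log2 fold changes of -0.03 ± 0.11 and 0.05 ± 0.31 (SE), and SLC25A34 held 11, 24 and 0 counts after knockdown and 7, 11 and 6 counts in controls.

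The 8 members under the filter were SLC25A41, SLC25A2, SLC25A6, SLC25A18, SLC25A31, SLC25A47, SLC25A48 and SLC25A52. Apart from SLC25A41, 6 had at most 1 count in every library, SLC25A31 and SLC25A47 had none, and SLC25A52 had at most 2. SLC25A6 is an ADP/ATP carrier gene annotated on both X and Y, and it is listed with at most 1 count. Of 18 protein-coding genes in the table that are annotated on both, 14 had at most 3 counts in every library, and CD99 among them is listed at 0, so the listed value says nothing of the level of SLC25A6.

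Levels within the family spanned more than 3 orders of magnitude per kilobase of exonic length. SLC25A5 led at 461 CPM per kilobase in knockdown and 499 in control libraries. SLC25A1 followed at 81.0 CPM per kilobase in knockdown and 106 in control libraries, then SLC25A3 at 75.7 in knockdown and 84.4 in control libraries and SLC25A39 at 50.2 in knockdown and 55.9 in control libraries. The 2 largest rises were in genes of low level: SLC25A27 was at 1.10 CPM per kilobase after knockdown and 0.459 in controls, and SLC25A21 at 0.955 CPM per kilobase after knockdown and 0.577 in controls. Exonic length here is the union of all annotated exons, which lowers the per-kilobase level of genes with long minor isoforms.

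Summed over the family, the level was 1043, 927 and 1074 CPM per kilobase in the knockdown libraries, against 1077, 1053 and 1190 CPM per kilobase in the controls. The ranges overlapped, and the knockdown mean was 91.7% of the control mean. SLC25A5 made up 44.1 to 46.4% of the sum in knockdown libraries and 44.7 to 45.6% in controls, and SLC25A1 7.58 to 8.31% in knockdown libraries and 8.89 to 10.3% in controls. In bulk RNA, fewer cells with a transcript and less of it per cell cannot be told apart.

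**Figure D4:**
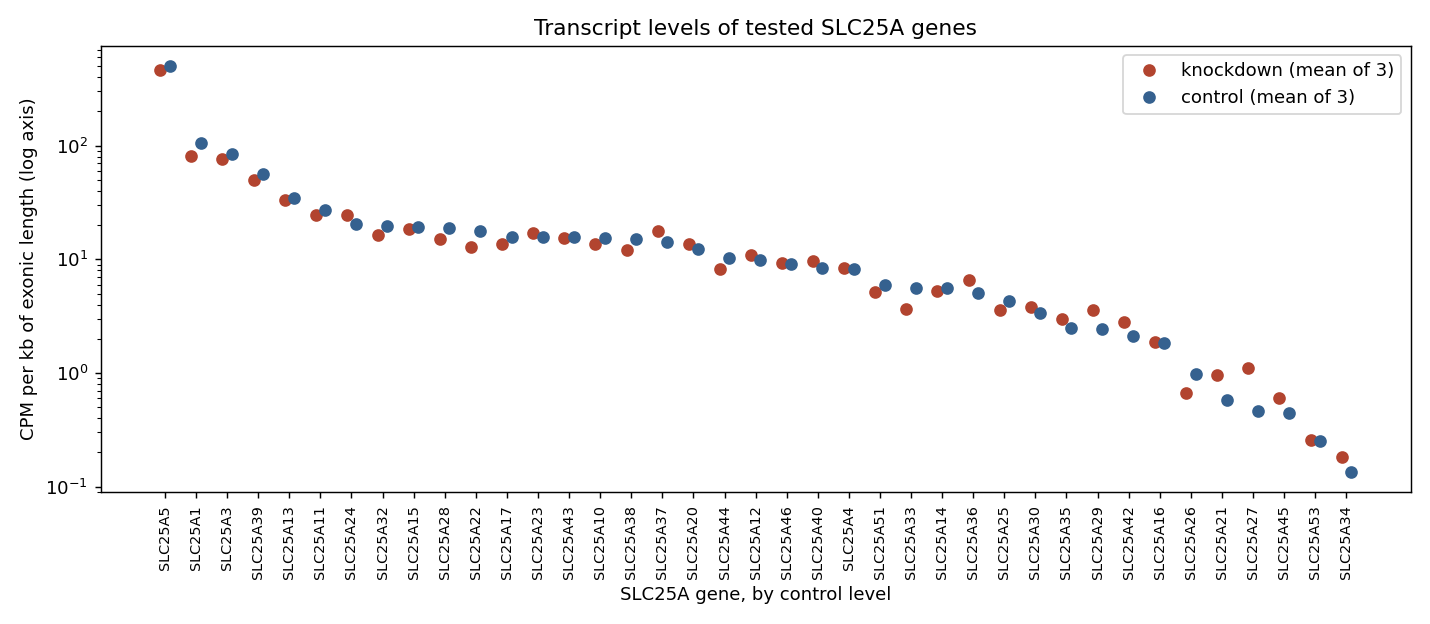
Mean CPM per kilobase of exonic length (y axis, log scale) of 39 of the 40 tested SLC25A genes in knockdown and control libraries, ordered by control level. The means of the groups lie close for most genes, from SLC25A5 at 461 in knockdown and 499 in control down to SLC25A34 at 0.183 in knockdown and 0.135 CPM per kilobase in control libraries.

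Base composition moved with the fold changes. Over the 40 carriers the Spearman correlation of log2 fold change with GC content was -0.20 and with exonic length 0.32, close to -0.26 and 0.25 over 12553 tested genes with an annotation. These are correlations across genes that share the same 6 libraries, given as a description. The 3 carriers that fell had a median GC content of 64.3% (45.7 to 66.2%) and the 5 that rose 42.6% (39.9 to 63.9%). Their ranges overlapped. With trends on both removed, 11 carriers passed, 5 higher and 6 lower: SLC25A36 was lost, and SLC25A32, SLC25A37, SLC25A44 and SLC25A46 were added. That correction could be made for 12553 genes, of which 1461 were then higher and 2160 lower. Without it, 1285 of the same 12553 genes were higher and 1005 lower, and of all 13896 tested genes 1349 were higher and 1053 lower. The part of base composition in the results was not tested.

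Genes that work with the carriers changed about as often as the transcriptome as a whole, and more of them fell than rose. Over 6 lists of related mitochondrial genes, 72 were tested, and 3 rose and 9 fell, or 16.7%, with a median log2 fold change of -0.18 against 0.01 over all tested genes. These include MTHFD2, the target of the hairpin, and without it 3 rose and 8 fell of 71, or 15.5%, with the same median. Of 11 tested genes that import carriers into the inner membrane, 2 fell and none rose, with a median of -0.30. TOMM40, the channel of the outer membrane, was at 149, 101 and 122 CPM in the knockdown libraries, against 196, 190 and 237 CPM in the controls (-0.74 ± 0.14 on the log2 scale, SE, edgeR adjusted p = 0.00591). TIMM13, a small chaperone of the intermembrane space, fell by 0.54 ± 0.15 (SE, edgeR adjusted p = 0.0326), and missed the threshold with control replicate 1 or 3, or knockdown replicate 2, left out (edgeR adjusted p = 0.0808, 0.135 and 0.0714). TIMM22, the core of the carrier translocase, is listed with 0 to 5 counts and was not tested.

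Among 17 tested transporters of the inner membrane outside the family, 1 fell, SLC1A5, a glutamine transporter mainly of the cell surface with a mitochondrial variant (-0.54 ± 0.10, SE, edgeR adjusted p = 0.00465). The mitochondrial pyruvate carrier genes MPC1 and MPC2 had log2 fold changes of -0.19 ± 0.18 and -0.16 ± 0.11 (SE), and SFXN1, the mitochondrial serine transporter, -0.04 ± 0.09 (SE).

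Of 20 tested enzymes that use carried substrates, 2 rose and 1 fell. ACLY was at 611, 546 and 422 CPM in the knockdown libraries, against 934, 925 and 846 CPM in the controls. IDH2, the mitochondrial NADP-linked isocitrate dehydrogenase, rose by 0.60 ± 0.16 (SE, edgeR adjusted p = 0.0231), and missed the threshold with control replicate 1 or 2, or knockdown replicate 3, left out (edgeR adjusted p = 0.103, 0.0688 and 0.0556). CPT1A, which makes the acylcarnitines that SLC25A20 carries, rose by 0.38 ± 0.10 (SE, edgeR adjusted p = 0.0256), and missed the threshold with any control, or knockdown replicate 2, left out (edgeR adjusted p from 0.0731 to 0.127). GOT1, GOT2, MDH1 and MDH2, the enzymes of the malate-aspartate shuttle, did not pass, with log2 fold changes of -0.21 ± 0.11, -0.30 ± 0.10, 0.10 ± 0.12 and -0.28 ± 0.12 (SE).

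Regulators of mitochondrial content gave 1 fall among 10 tested. PPRC1, a coactivator of nuclear genes for mitochondria, was at 102, 80.4 and 62.9 CPM in the knockdown libraries, against 118, 121 and 117 CPM in the controls (-0.53 ± 0.15, SE, edgeR adjusted p = 0.0298). It did not pass with control replicate 1, 2 or 3 left out (edgeR adjusted p = 0.0768, 0.0582 and 0.0719). TFAM, which packages mitochondrial DNA, had a log2 fold change of 0.00 ± 0.10 (SE). In the list of mitochondrial folate enzymes, which holds the target, MTHFD1L, the formate-producing partner of MTHFD2, was at 81.0, 79.0 and 77.7 CPM in the knockdown libraries, against 96.2, 97.3 and 105 CPM in the controls. It fell by 0.33 ± 0.10 (SE, edgeR adjusted p = 0.0365), and missed the threshold with any control, or knockdown replicate 2, left out (edgeR adjusted p from 0.0759 to 0.143). SHMT2, which makes glycine and the folate-bound carbon unit that MTHFD2 uses, was at 157, 138 and 135 CPM in the knockdown libraries, against 179, 185 and 211 CPM in the controls. It fell by 0.42 ± 0.11 (SE, edgeR adjusted p = 0.0212), except that it missed the threshold with control replicate 1 or 3 left out (edgeR adjusted p = 0.0541 and 0.097). ALDH1L2, a mitochondrial enzyme that oxidises formyl folate, rose at a low level, with 16, 35 and 16 counts in the knockdown libraries, against 7, 2 and 5 counts in the controls. edgeR gave it 2.15 ± 0.52 on the log2 scale (SE, adjusted p = 0.0168), which missed the threshold with control replicate 2 or 3, or knockdown replicate 2, left out (edgeR adjusted p = 0.0514, 0.0587 and 0.0658).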

How the data were processed

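RNA-seq counts of 6 T24 libraries were used. The values the authors deposited are raw whole-number counts, 1 row per gene symbol, in 1 table. The submitters' processing notes name HISAT2 2.0.4 and the build GRCh38, and the sources used here do not give the counting tool, annotation, strand setting or filters. Groups and replicate numbers came from the titles. filterByExpr removed low genes. The remaining 13896 genes were tested, knockdown over control, by edgeR's robust quasi-likelihood F test with TMM scaling (edgeR 4.0.16, limma 3.58.1, R 4.3.3). P-values were adjusted over these genes by Benjamini-Hochberg, and 0.05 was the threshold. The size of a log2 fold change divided by the square root of F gave its standard error. GENCODE 29 (GRCh38) supplied positions, exonic lengths and GC contents, for 12553 of the tested genes and all 40 tested carriers, and RefSeq the promoters. Replicates within a group differed by more than sampling noise, with a chi-square per df of 2.63 to 34.8. Simulated counts of 13896 genes had 50 changed at each of 1.5-, 2-, 3- and 4-fold. There 3.5% of calls were false, a rate that need not hold for these data. Alternatives were RLE scaling, DESeq2 1.42.0, other filters, replicate numbers taken as blocks, libraries left out singly, knockdown replicate 2 alone, GC content and length trends removed (splines with 5 degrees of freedom) and a threshold of 0.01. Every carrier past the threshold is named with its values, the other carriers by class, and up to 4 changed genes of each list. Other list genes were named for their role after their values had been seen. Symbols alone decided which genes are members, but the family, and with it the members, as well as the lists and tests, were chosen with earlier results of these data known. The values of 1 tested carrier are not reported here.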

Additional observations from a re-analysis of the deposited data

How the results depend on the processing

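The 8 carriers past the threshold became 15 with the replicate number as a block, 17 with that block and GC content and length trends removed, 13 with knockdown replicate 2 alone and 1 at a threshold of 0.01. Leaving out a library gave 1 to 7. For the same alternatives, the 2402 changed genes became 5062, 5548, 4432 and 749, with 3621 of 12553 when trends alone were removed and 986 to 2645 without a library. The fit with knockdown replicate 2 alone has no knockdown replication, and its spread comes from the controls only. Its counts of carriers and of all genes are therefore not comparable with the others, and no result was drawn from them. The 12 changed genes of the lists became 30 with the block, 42 with the block and trends removed, and 5 at the threshold of 0.01. They became 29 when trends alone were removed and 6 to 17 without a library. SLC25A46, at 0.02 and not called, was called lower at -0.21 with trends removed, with or without the block (edgeR adjusted p = 0.0379 and 0.00895). Whether the numbers pair the libraries was not settled by the values. Deviations from group means of same-numbered libraries correlated at -0.0204, 0.297 and 0.353, and those of differently numbered libraries at -0.405 to 0.165. Knockdown replicates 2 and 3 correlated best with the control of their own number, and knockdown replicate 1 with control replicate 3, at only 0.0477. RLE scaling, DESeq2 and other filters gave 6 to 8 carriers. The summed carrier level stayed at 89.0 to 95.6% of control in the alternatives tried. Calls close to the threshold and genes of few counts limit what these 6 libraries show.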

Other observations

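Rows that carry the family name but were not counted as members were also read. All 41 pseudogene rows, such as SLC25A5P1, had at most 5 counts in every library. Antisense genes numbered 4, and the 3 that were tested did not pass. SLC25A25-AS1 held 126, 65 and 60 counts in the knockdown libraries, against 83, 144 and 74 counts in the controls. SLC25A21-AS1, which overlaps exons of SLC25A21 on the other strand, held 30, 40 and 44 counts after knockdown and 27, 26 and 47 counts in controls, overlapping ranges where those of SLC25A21 were apart. SLC25A5-AS1 held 35, 34 and 28 counts after knockdown and 29, 27 and 20 counts in controls. PPARGC1A, a coactivator that drives mitochondrial biogenesis, was under the filter with 6, 12 and 7 counts after knockdown and 2, 1 and 0 counts in controls. Without the filter it passed by edgeR (adjusted p = 0.0208) on these few counts, and DESeq2 gave it no adjusted p.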
